A study of Mus musculus with 168 samples.

Results

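The miR-30 rows described here are Mir30a, Mir30c-1 and Mir30c-2, 3 of the 1228 named genes in the cortex small RNA count table. They were taken by gene name from the GENCODE vM21 annotation of GRCm38. The table holds cortex libraries from 8 mice in each of 7 genotypes at 2, 6 and 10 months of age. All mice were on a C57BL/6 background. The mutant mice were heterozygous for an Htt knock-in allele named by its CAG repeat length, Q80, Q92, Q111, Q140 or Q175. The controls were Q20 knock-in mice, whose repeat is in the normal range, and wild-type (WT) animals from Q20 litters, whose mouse Htt gene carries 7 CAG. The Q175 line arose by a spontaneous expansion in the Q140 model. Both sexes were sequenced in every group. The 6-month WT libraries are labelled cortex, but the study's methods list WT cortex at 2 and 10 months only. They are shown apart and enter no main comparison, which leaves 160 libraries.

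MicroRNAs are short RNAs cut from hairpin precursors. Loaded into an Argonaute protein, they pair with messenger RNAs mainly through the seed, bases 2 to 8 from the 5′ end, and lower the output of those messages. The miR-30 family is strongly expressed in brain, and among its described targets are the messages for the neurotrophin BDNF and for the autophagy protein Beclin 1.

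The mature sequences show why the rows are read together, since the members share a seed while their bodies differ. They are from RefSeq (GRCm38.p6), matched by name for 3 of 3 members, with the seed in capitals.
miR-30a-5p: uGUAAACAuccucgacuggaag
miR-30c-5p: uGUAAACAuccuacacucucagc
miR-30e-5p: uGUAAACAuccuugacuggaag
miR-384-5p: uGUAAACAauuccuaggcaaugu
The last 2 are the other rows of the table with a RefSeq mature sequence of the same seed, Mir30e and Mir384, and the table also has rows for Mir30b and Mir30d. Over the 22 bases that both have, miR-30a-5p and miR-30c-5p differ at 5, which are C13A, G14C, G18C, G19U and A20C counted from the 5′ end with the miR-30a-5p base first. miR-30a-5p and miR-30e-5p differ at 1, C13U. Mir30c-1 and Mir30c-2 give the identical miR-30c-5p, so a read of that product cannot be assigned to either locus. The 3p arms do differ, and their own seeds are in capitals here.
miR-30a-3p: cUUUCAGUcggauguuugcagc
miR-30c-1-3p: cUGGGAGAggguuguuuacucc
miR-30c-2-3p: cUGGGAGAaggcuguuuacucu
The 2 miR-30c 3p arms differ at G9A, U12C and C22U, with the Mir30c-1 base first.

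The hairpins are given with both mature arms in capitals, to show what surrounds the shared sequence at each locus.
Mir30a: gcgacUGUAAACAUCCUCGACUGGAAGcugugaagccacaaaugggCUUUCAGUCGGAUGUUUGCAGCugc
Mir30c-2: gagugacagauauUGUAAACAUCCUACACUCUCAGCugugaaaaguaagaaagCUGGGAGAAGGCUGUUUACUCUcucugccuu
Mir30c-1: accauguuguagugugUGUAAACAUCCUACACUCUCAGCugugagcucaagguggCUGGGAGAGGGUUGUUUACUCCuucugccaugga
Mir30a (ENSMUST00000083471) lies at chr1:23272269-23272339 on the plus strand of GRCm38, outside any other annotated gene. Mir30c-2 (ENSMUST00000083633) follows 19361 bases further along the same strand, at chr1:23291701-23291784, in an exon of the long noncoding RNA Gm27028. Mir30c-1 (ENSMUST00000083556) lies at chr4:120769534-120769622 on the minus strand, in an intron of Nfyc, which encodes a subunit of the transcription factor NF-Y. In the same intron-bearing gene and on the same strand, 2983 bases away, is Mir30e.

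The deposited values are the authors' estimated counts, which need not be whole, and for these rows they show which loci share reads. Mir30a was whole, within 0.05 of an integer, in 14 libraries, Mir30c-1 in 15 and Mir30c-2 in 18. The sum of Mir30a, Mir30d and Mir30e was whole in every library, and so was the sum of Mir30b, Mir30c-1 and Mir30c-2. Counts had thus been divided among the loci inside each of these sets. In the first set the division was mainly between Mir30a and Mir30e, whose sum was whole in 150 libraries, as was Mir30d alone. The level of any single member is therefore uncertain as to its locus, and sums over the sets are given for the genotype, CAG length, age and 6-month WT results.

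Library totals ran from 2041741 to 11646287 counts with a median of 4810487, and 66.7% of all counts fell on the 329 microRNAs of the study's own list that had a row. Levels are in CPM, counts scaled to a common library size, with trimmed mean of M-values (TMM) factors, and shares are percentages of a library's total count. The smallest count of any member in a library was 1817, for Mir30c-1. Counting error was small: the lowest Mir30a share, 3.16% in a 6-month Q175 library, had an exact 95% binomial interval of 3.14% to 3.18%. The lowest Mir30c-1 share, 0.0655% in a 2-month Q140 library, had an interval of 0.0631% to 0.0680%. These intervals cover counting error only.

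Mir30a was among the most abundant listed microRNAs in these cortex libraries, Mir30c-2 was intermediate and Mir30c-1 was low. Per kilobase of annotated hairpin, the mean level over 160 libraries was 537325 CPM ± 49825 (SD) for Mir30a, 154745 ± 44556 for Mir30c-2 and 9530 ± 1393 for Mir30c-1. Among the 328 listed microRNAs with a count, Mir30a was 3rd in this order and held a place between 3 and 5 in every one of the 160 libraries. The microRNA above it, Mir26a-2, was higher in 160 of 160 libraries, whereas the one below it, Mir9-2, was lower in only 96, so Mir30a and Mir9-2 were not separated beyond their spread. Mir30c-2 was 13th, with Mir128-2 above it in 99 libraries and Mir126a below it in 109, and its place in single libraries ran from 9 to 22. These means pool ages whose Mir30c-2 levels differ, as given below. Mir30c-1 was 69th, between Mir383 and Mir148b, with places from 56 to 85. Neither Mir30c locus was set apart from its neighbours in the order. By CPM without division by length, Mir30a was 3rd, Mir30c-2 was 11th and Mir30c-1 was 76th. Only 329 of the 480 names on the study's list had a row, and unlisted rows such as Mir30e were not ranked.

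As a share of the library, Mir30a took 3.84% ± 0.329 (SD, n = 160) of all counts. Mir30c-2 took 1.31% ± 0.377 and Mir30c-1 took 0.0851% ± 0.00970. Together the 3 members held between 4.10% and 6.73% of the counts of a library, with a median of 5.25%. All 7 rows of the seed family held between 7.84% and 11.04%.

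The tissue label was checked with microRNAs known from single cell types, which can tell brain from liver but not cortex from other brain regions. The 9 neuronal rows (Mir124, Mir128, Mir138 and Mir9 loci) summed to a median of 97581 CPM at 2 months and 107898 CPM at 10 months, and the liver microRNA Mir122 averaged 3.59 CPM at 2 months. Values for the other cell types are given beside the age comparison.

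**Figure D1:**
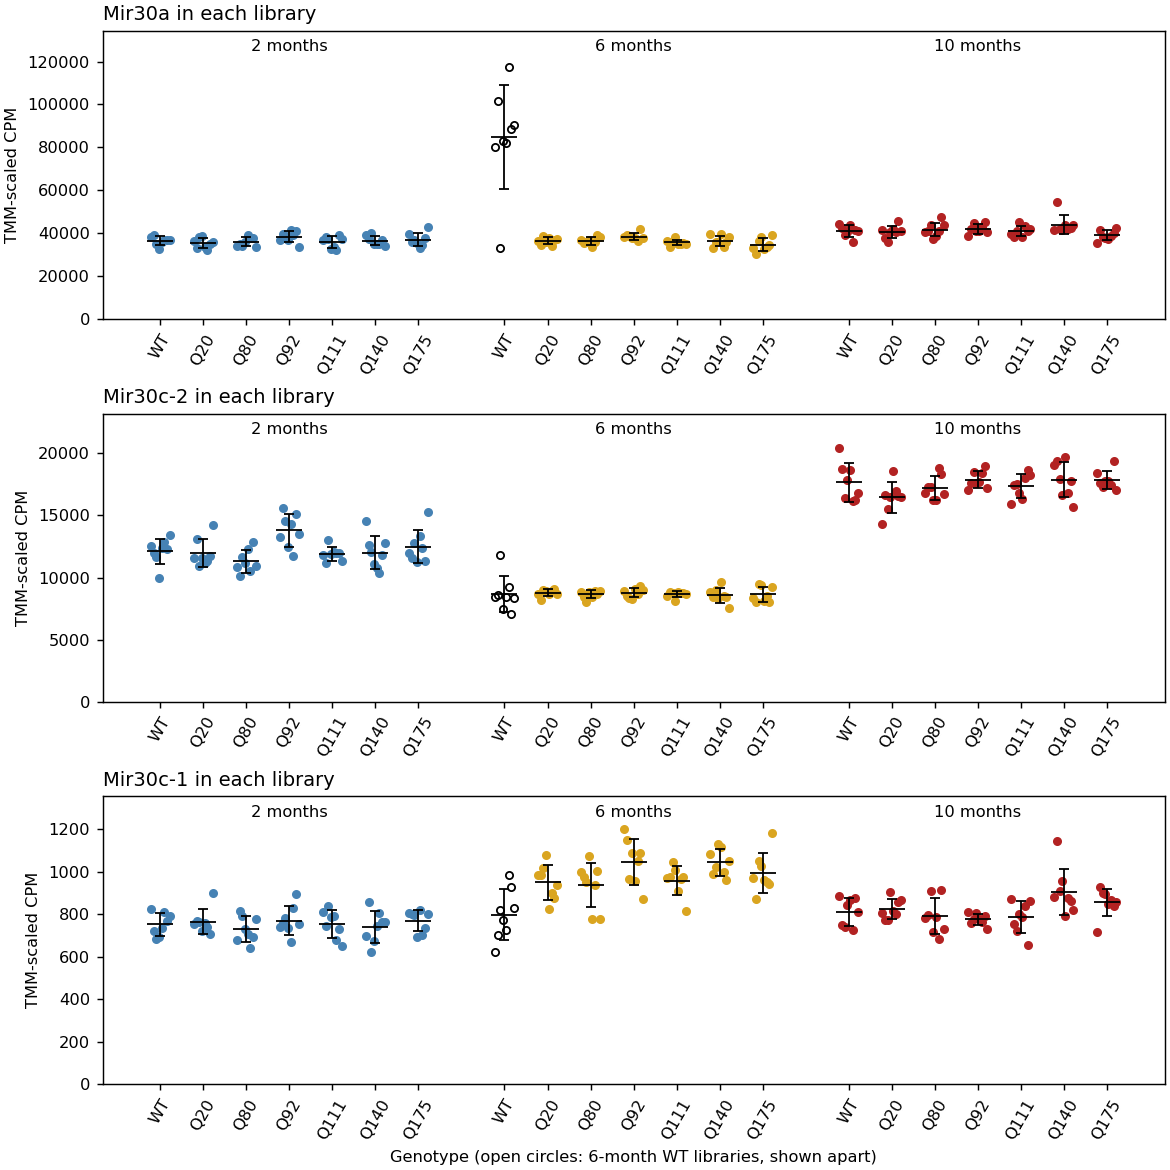
TMM-scaled CPM (y axis, linear from 0) of Mir30a, Mir30c-2 and Mir30c-1 in each library, by genotype and age along the x axis. Points are libraries, bars are the mean and SD of 8, and open circles are the 6-month WT libraries. Mir30c-2 reaches at most 9671 CPM in the 48 other 6-month libraries and starts from 14277 CPM in the 10-month libraries, while 7 of the 8 open circles for Mir30a lie at 80362 CPM or more.

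To see whether the members responded to the length of the CAG repeat, each mutant genotype was first compared with the controls of its age. None of the 3 members was differentially expressed (DE) at FDR<0.05 in any of the 15 comparisons by edgeR's quasi-likelihood test with Benjamini-Hochberg adjustment over all listed microRNAs with a count. Among the 45 tests, 7 had an unadjusted p below 0.05, where 8.61% of all microRNA tests in these comparisons did, and DESeq2 called 1, where it called 1.51% of all microRNA tests. For the read-sharing sets, 0 of 30 tests passed and the smallest adjusted p by edgeR was 0.132. The share of all microRNAs called by edgeR in the same comparisons was 12.2% for Q175 at 10 months, 2.77% for Q175 at 6 months, 0.311% for Q92 at 6 months and 0.0% in the other 12. Fold changes of the members ran from -0.08 to 0.20 on the log2 scale, and 39 of 45 were smaller than 0.1 in size.

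Levels overlapped between Q175 mice and controls at every age. At 10 months, Mir30a ran from 35438 to 42428 CPM with a median of 38458 in the 8 Q175 mice, and from 35907 to 45633 with a median of 41035 in the 16 controls. The Q175 median was the lower one and the ranges overlapped. The difference was -5.50%, with a 95% interval of -10.9% to 0.187% (log2 fold change -0.08, SE 0.041, edgeR adjusted p = 0.203). Mir30c-2 ran from 17054 to 19356 CPM with a median of 17681 in Q175 and from 14277 to 20414 with a median of 16631 in controls. Every Q175 value lay inside the control range, and the difference was 3.48% (interval -3.33% to 10.8%, edgeR adjusted p = 0.570). Mir30c-1 ran from 715.7 to 930 CPM with a median of 862 in Q175 and from 727 to 906 with a median of 813 in controls. The interval of its difference, 3.55%, was -3.20% to 10.8%. At 2 months the 3 differences lay between 0.951% and 3.13%, and the widest interval reached 11.1%.

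At 6 months only the Q20 mice served as controls, and libraries carried a code that was kept as a covariate. Mir30a had a median of 34010 CPM in Q175 (lowest 30130, highest 39228) and of 36584 in Q20 (34147 to 38782). Mir30c-2 had a median of 8430 CPM in Q175 (8065 to 9474) and of 8804 in Q20 (8176 to 9053). Both pairs of ranges overlapped. The fitted difference of Mir30a was -0.48% (interval -7.81% to 7.43%). For Mir30c-2 the fitted log2 value was 0.027, opposite in sign to the difference of its medians. Mir30c-1 had a median of 966 CPM in Q175 (873 to 1182) and of 961 in Q20 (825 to 1079), and the fitted difference of 9.02% had an interval of -0.711% to 19.7% (edgeR adjusted p = 0.358). The code named V was carried by 11 libraries at this age, 3 of them Q175 and none Q20. With the code as a covariate, each fitted difference from Q20 therefore rested on the mutant libraries without V, whereas the medians above include all. In Q111 the 4 libraries with V were all the males, so that comparison rested on females. In these, Mir30c-1 averaged 923 CPM ± 71.4 (SD) against 1007 ± 92.9 in the 37 others, and Mir30a averaged 34122 ± 1707 against 37009 ± 1941. Genotypes at 6 months were also sequenced on different lanes. Where lanes were shared, Q175 against Q80 in 11 libraries gave -0.41% for Mir30a, 2.55% for Mir30c-2 and 10.2% for Mir30c-1, none past FDR<0.05 (0.0% of 324 microRNAs called). Q140 against Q92 in 12 libraries gave -3.79%, -7.82% and -0.34% in the same order, again with none past FDR<0.05 (0.31% of 323 called). The interval of the Mir30c-2 value, -13.2% to -2.12%, did not reach 0, and its adjusted p by edgeR was 0.348.

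The largest genotype difference of a member was that of Mir30c-2 in 2-month Q92 mice. Its level ran from 11725 to 15613 CPM with a median of 13914 in Q92, and from 9960 to 14220 with a median of 11822 in the controls. The Q92 mean was the highest of the 7 genotypes at this age, yet the ranges of Q92 and the controls overlapped. The difference was 14.5%, with an interval of 6.21% to 23.5% (log2 fold change 0.20, SE 0.053), and missed the threshold in edgeR's test with an adjusted p of 0.0543. It passed with DESeq2 (adjusted p = 0.0228) and with lane as a covariate (adjusted p = 0.0249), and the adjusted p over all alternatives ran from 0.0228 to 0.244. The sum of Mir30b, Mir30c-1 and Mir30c-2 was higher by 11.4% (edgeR adjusted p = 0.132). At 6 months the same comparison of Mir30c-2 gave -0.97% (interval -4.99% to 3.22%) and at 10 months 4.12% (-2.59% to 11.3%). Mir30a was also higher in 2-month Q92 mice, by 6.49% (interval 0.663% to 12.6%, edgeR adjusted p = 0.265). Its read-sharing set was higher by 5.99% (adjusted p = 0.219). Mir30b, Mir30c-1, Mir30d and Mir30e too had their highest 2-month mean in Q92, but Mir384 did not. In 10-month Q140 mice Mir30a was higher by 7.19% (interval 0.597% to 14.2%, edgeR adjusted p = 0.383).

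Mir30c-1 was the member with the most differences at an unadjusted p below 0.05. In Q140 mice the fitted difference was 10.5% at 6 months (interval 2.48% to 19.1%) and 10.1% at 10 months (2.37% to 18.4%), with edgeR adjusted p-values of 0.403 and 0.312. In Q92 mice it was 9.24% at 6 months and -5.61% at 10 months, with adjusted p-values of 0.388 and 0.648. The sum of its read-sharing set differed by -1.74% at 6 months and 3.89% at 10 months in Q140 mice, and by 0.457% and 5.28% in Q92 mice. One Q140 library at 10 months, from female F2, had 1146 CPM, above the next at 954.

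**Figure D2:**
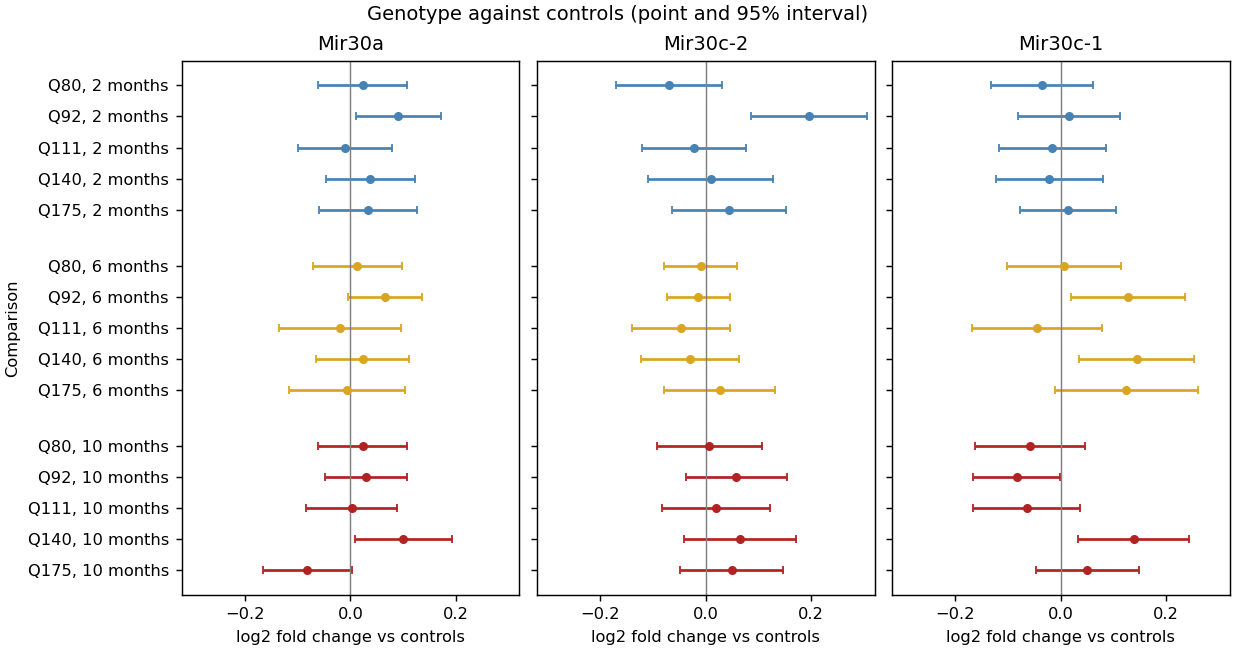
log2 fold change against controls (x axis) of Mir30a, Mir30c-2 and Mir30c-1 for 5 mutant genotypes at 3 ages (y axis), where points are fitted values and bars their 95% intervals. The values lie between -0.08 and 0.20, and the one farthest from 0 is Mir30c-2 in 2-month Q92 mice.

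Treating CAG length as a number tested for a graded response over all genotypes of an age. No member passed FDR<0.05 at 2, 6 or 10 months, where edgeR called 0.0%, 2.75% and 8.84% of the microRNAs, and DESeq2 called no member either. Unadjusted p was below 0.05 for 1 of the members at 6 months (Mir30c-1) and for 0 at the other ages, against 20.2% of all microRNAs at 6 months, 3.98% at 2 months and 22% (72 of 328) at 10 months. Per 100 CAG repeats at 10 months, the change was -0.15% for Mir30a (log2 coefficient -0.0022, SE 0.025), 2.77% for Mir30c-2 (0.04, SE 0.023) and 3.74% for Mir30c-1 (0.05, SE 0.030). At 6 months the log2 coefficients were -0.03, -0.02 and 0.07 in the same order. When the statistics of the later ages, 6 and 10 months, were combined, 11.9% of microRNAs were called, and Mir30c-1 had a Z of 2.71 (edgeR adjusted p = 0.0549), Mir30c-2 a Z of 0.47 and Mir30a a Z of -1.10. When Mir30c-1 and Mir30c-2 were summed, the coefficient at 6 months was -0.0025 (edgeR adjusted p = 0.977), and with Mir30b added it was -0.019 (adjusted p = 0.716). The difference between the 2- and 10-month coefficients passed for 0 of 3 members, against 1.83% of all microRNAs, and the difference between males and females passed for 0 of 3, against 0.61%. By sex, the fitted male against female values were 0.51% for Mir30a, 1.64% for Mir30c-2 and -1.15% for Mir30c-1.

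Age gave the one set of differences past the threshold. All 3 members were higher at 10 than at 2 months by edgeR's quasi-likelihood test, in a comparison where 31.7% of the 328 microRNAs were called higher and 34.5% lower. Mir30c-2 rose by 42.8% (log2 fold change 0.51, SE 0.022, adjusted p = 9.61e-42), which was the 13th largest rise. Mir30a rose by 12.9% (0.18, SE 0.019, adjusted p = 1.64e-14) and was 78th. Mir30c-1 rose by 8.52% (0.12, SE 0.023, adjusted p = 2.19e-06) and was 102nd. The median of all 328 was -0.02. With 66.2% of the microRNAs called in either direction, a call alone told little about the members.

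For Mir30c-2 the ages separated in every genotype. In WT mice it ran from 9960 to 13418 CPM at 2 months and from 16153 to 20414 at 10 months. In Q20 mice it ran from 10934 to 14220 and from 14277 to 18578. In Q175 mice it ran from 11213 to 15316 and from 17054 to 19356. The 2-month and 10-month mice did not overlap in 7 of 7 genotypes, whereas all 10-month mice lay above all 2-month mice for 4.27% of the microRNAs in WT, 4.88% in Q20, 4.88% in Q80, 6.1% in Q92, 3.66% in Q111 and 4.88% in Q175. The log2 difference of the means lay between 0.38 in Q92 and 0.61 in Q80. Mir30a separated in 1 of 7 genotypes, Q140, where 5.79% of microRNAs did so, and 53 of 56 mice at 10 months lay above the 2-month median of their genotype. Its log2 differences ran from 0.08 in Q175 to 0.26 in Q140. Mir30c-1 separated in 0 of 7 genotypes and 46 of 56 mice lay above the median.

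The rise of Mir30c-2 and of Mir30a did not hinge on the scaling, but that of Mir30c-1 did. Scaled by library size alone, the log2 fold changes were 0.44 for Mir30c-2, 0.10 for Mir30a and 0.04 for Mir30c-1 (adjusted p = 0.0912). Ages were sequenced mostly on different lanes. With lane number as a covariate the values were 0.47, 0.29 and 0.016 (adjusted p = 0.866). Only lane number 7 held libraries of both ages, so this fit and the subset that follows draw the age difference from the same libraries. None of the 2-month libraries with that number was Q92, Q140 or Q175. Among the 4 libraries at 2 months and 25 at 10 months with lane number 7, Mir30c-2 averaged 12789 CPM ± 1238 (SD) and 17784 ± 990, and Mir30a averaged 34828 ± 1885 and 42354 ± 3458, while Mir30c-1 averaged 818 ± 54.3 and 836.98 ± 95.9. In that subset the edgeR value of Mir30c-1 was -0.05 (adjusted p = 0.644). Age and other features of the sequencing runs cannot be told apart in these libraries. Summed over read-sharing sets, Mir30b, Mir30c-1 and Mir30c-2 together rose by 0.50 on the log2 scale, and Mir30a, Mir30d and Mir30e by 0.18.

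**Figure D3:**
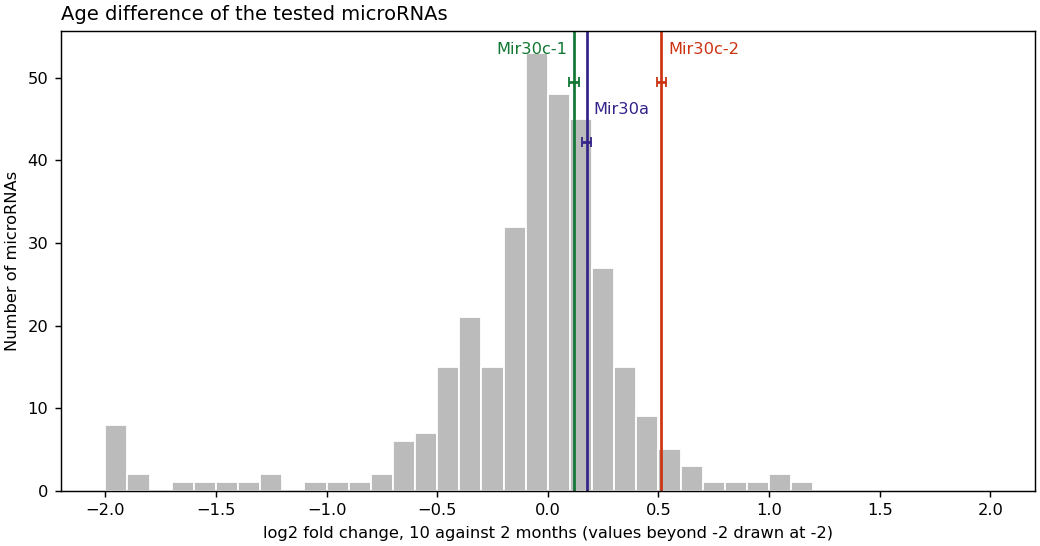
Number of microRNAs (y axis) by log2 fold change of 10 against 2 months (x axis) for the 328 tested, with lines at the 3 members and short bars for their SE. Mir30c-2 at 0.51 lies far to the right of the bulk, whose median is -0.02, and Mir30a at 0.18 and Mir30c-1 at 0.12 lie closer to it.

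The remaining loci with the same seed moved in the same direction with age. Of these, 3 of 3 on the study's list were called higher, as were 31.7% of the 328 microRNAs tested. Mir30b, Mir30d and Mir30e belong to the read-sharing sets of the members, so their values are not independent of the members' values. Mir30b rose by 0.55 (SE 0.021), Mir30d by 0.14 (SE 0.015) and Mir384, an X-linked brain microRNA, by 0.09 (SE 0.027). Mir30e is not on that list and was tested among all transcripts with a count, where 25.1% were called in either direction. It rose by 0.24 (SE 0.018, edgeR adjusted p = 1.18e-23). In the 23 other comparisons, 0 of these loci passed FDR<0.05, and the smallest adjusted p was 0.190, for Mir30b. The Mir30c-1 share of the Mir30c counts was 5.85% ± 0.592 (SD, n = 56) at 2 months and 4.504% ± 0.467 at 10 months.

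The markers of other cell types also moved with age, and their part in these differences was not tested. Of the 8 neuronal rows tested, 5 were called higher and 1 lower at 10 months. The summed neuronal level ran from 90324 to 116607 CPM at 2 months and from 97496 to 124220 at 10 months. For oligodendrocytes, 1 of 2 rows was higher (Mir219a-2, 0.47), and the 3 rows with a count summed to between 2764 and 4289 CPM and between 2846 and 5369. For endothelium and mural cells, 0 of 3 rows were higher and 1 was lower, with sums of 17645 to 26407 and 15337 to 25499 CPM. For microglia and leukocytes, 1 of 2 rows was higher and 1 lower, with sums of 169 to 363 and 171 to 344 CPM. For erythrocytes, 1 of 1 row tested was higher, with sums of 240.4 to 409 and 292 to 520.3 CPM. For choroid plexus and ependyma, 3 of 5 rows were higher and 2 lower, with sums of 2860.2 to 6531 and 3218 to 12521.5 CPM. In whole tissue, fewer cells of a type and less of a microRNA per cell cannot be told apart.

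Levels at 6 months did not lie between those at 2 and 10 months. Mir30c-2 averaged 8674 CPM ± 416 (SD, n = 48) at 6 months, against 12228 ± 1289 (n = 56) at 2 months and 17476 ± 1164 (n = 56) at 10 months. All 48 libraries, from 7547 to 9671 CPM, lay below all 2- and 10-month libraries, as was so for 3.35% of the microRNAs. Mir30b showed the same order, with 1431 to 1885 CPM at 6 months, 2572 to 3757 at 2 months and 3519 to 5101 at 10 months. Mir30c-1 went the other way, averaging 988 CPM ± 94.7 at 6 months, 755 ± 60.3 at 2 months and 822 ± 80.1 at 10 months, with overlapping ranges. Mir30a averaged 36348 CPM ± 2238 at 6 months and 36504 ± 2498 at 2 months, against 41341 ± 3114 at 10 months. The Mir30c-1 share of the Mir30c counts was 10.2% ± 0.924 at 6 months and its lowest value, 8.01%, lay above the highest at 2 months, 7.44%. Marker sums differed too, and their part in these levels was not tested. Endothelium and mural rows summed to between 30330 and 42970.5 CPM at 6 months, above the ranges at 2 and 10 months given above, and microglia and leukocyte rows to between 650 and 1346 CPM, also above both. Most of the first sum was Mir143, which averaged 27228 CPM against 13394 at 2 months and 10357 at 10 months. Mir145a was lower at 6 months, with 222 CPM against 356 and 338. Most of the second sum was Mir146, which averaged 860 CPM against 238 at 2 months and 191 at 10 months. The neuronal sum ran from 83286 to 101888 CPM, and its rows did not move together. Mir138-2 averaged 5228 CPM against 9918 at 2 months and 10433 at 10 months. Mir124a-1 went the other way, with 9478 CPM against 7072 at 2 months and 6528 at 10 months. Oligodendrocyte rows summed to between 2771 and 3740 CPM. Library identifiers of these 48 libraries belong to a different number series than those at 2 and 10 months, so age and library series cannot be told apart among them. The 6-month libraries were set against no other age in a test.

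**Figure D4:**
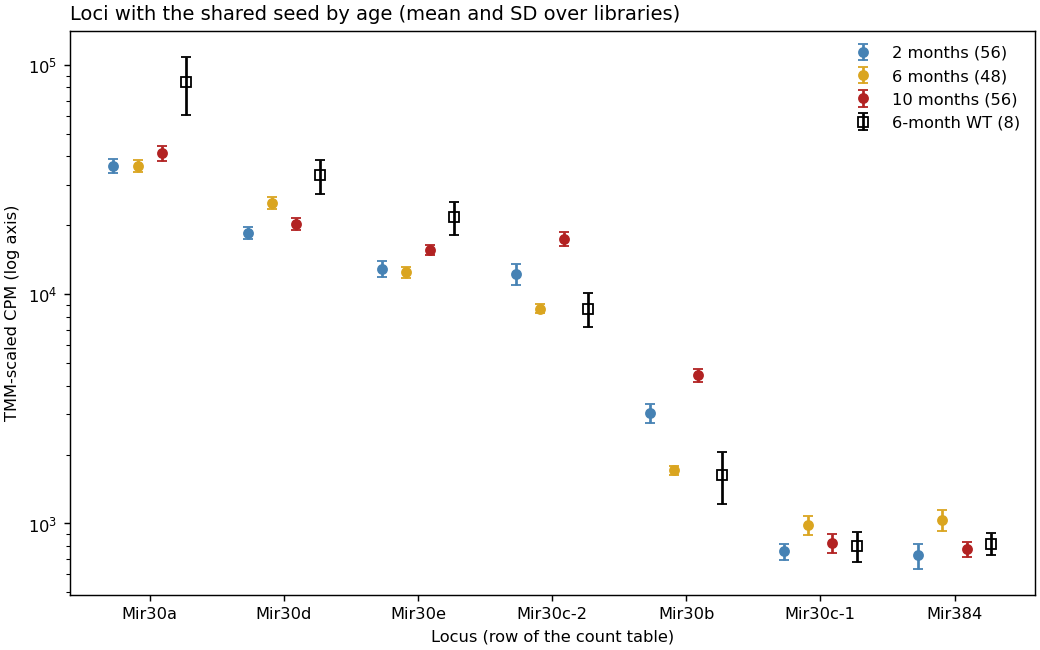
Mean TMM-scaled CPM and SD over libraries (y axis, log scale) of the 7 loci of the seed family (x axis) at 2, 6 and 10 months and in the 6-month WT libraries (open squares). Of the 3 filled points, those of Mir30c-2 and Mir30b are lowest at 6 months, at 8674 and 1707 CPM, and Mir30a, Mir30d and Mir30e are highest in the 6-month WT libraries, at 84614, 33050 and 21738 CPM.

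The 8 libraries from 6-month WT mice stood apart for Mir30a. Their identifiers belong to the number series of the 2- and 10-month libraries and all were sequenced on lane number 3, so genotype, lane and library series cannot be told apart in them. The study's methods list no WT cortex at 6 months, so their origin rests on the label. Liver Mir122 averaged 7.14 CPM in them, and the markers cannot tell cortex from other brain regions. Lane number 3 was also that of some 6-month Q20 and Q111 libraries, whose identifiers belong to the other number series. The Mir30a level averaged 84614 CPM ± 24223 (SD, n = 8) in the WT libraries. It was 2.32-fold that of 6-month Q20 mice, which had 36408 ± 1601. The library labelled F3 was the exception, with 33033 CPM, while the other 7 ran from 80362 to 117552 CPM, all above the highest of the 160 other libraries at 54519. The same was true of 6.1% of the listed microRNAs in those 7 libraries, Mir30d among them, and of Mir30e, which is not listed. Without F3 the mean was 91982 CPM ± 13332, 2.53-fold the Q20 level. As a share of the library, Mir30a took 7.26% ± 1.69 in the 8 WT libraries and 3.51% ± 0.145 in the other 48 of that age. The sum of Mir30a, Mir30d and Mir30e was 1.89-fold the Q20 level and that of Mir30b, Mir30c-1 and Mir30c-2 was 0.969-fold. In the 7 libraries Mir30c-2 averaged 8231 CPM ± 746, 0.938-fold the 6-month Q20 mean, and Mir30c-1 averaged 795 ± 129, 0.836-fold. Mir30c-2 in these 7, from 7040 to 9246 CPM, and Mir30b, from 1277 to 1603 CPM, lay below every 2-month library, although the identifiers are of the same series. Marker rows also stood apart in the 8 WT libraries, and their part was not tested. Mir9-2 averaged 57933 CPM against 32687 in the other 6-month libraries. Not all neuronal rows were higher, with Mir124a-1 at 5390 against 9478 CPM, Mir138-1 at 467 against 650 and Mir138-2 at 4417 against 5228. The median sums were 107999 against 90005 CPM for neuronal rows, 2196 against 3302 for oligodendrocyte rows, 42759 against 37294 for endothelium and mural rows and 460.2 against 854 for microglia and leukocyte rows.

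The library labelled F3 had values in the 2-month range for 6 of the 7 loci of the seed family. Its Mir30c-2 level of 11791 CPM lay outside the range of the other 6-month libraries and inside that of 2-month libraries, 9960 to 15613. Its Mir30b level of 2620 CPM and Mir30d level of 19825 CPM also lay outside the 6-month ranges and inside the 2-month ranges. Mir30a at 33033 CPM and Mir30c-1 at 819 CPM lay inside the 6-month ranges as well. Mir30c-1, Mir30d and Mir30e in F3 were also inside the 10-month ranges. The F3 level of Mir384, 995 CPM, did not follow, lying inside the 6-month range of 856 to 1308 and above that at 2 months. With the 6-month WT libraries added as controls, the log2 coefficient of CAG length at 6 months became -0.54 for Mir30a (edgeR adjusted p = 2.88e-05) and 0.17 for Mir30c-1 (adjusted p = 0.000432). Without F3 these were -0.59 and 0.15. Without any WT library they were -0.03 and 0.07, neither past the threshold. The share of all microRNAs called in the fits with WT libraries is not given, so these calls cannot be read as particular to the members.

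Across mice, levels of the members were weakly tied within genotype and age. Over 160 libraries, with log2 CPM centred on the mean of each genotype at each age, Mir30a and Mir30c-2, the neighbours on chromosome 1, had a Pearson r of 0.38 and a Spearman rho of 0.37 (adjusted permutation p = 3e-05 for each over 3 pairs, the raw p of 1e-05 being the smallest that the permutations can give). Without the 2 libraries farthest from the median of Mir30a, r was 0.34. Within ages r was 0.33 for 2-month, 0.45 for 6-month and 0.44 for 10-month mice. With library size alone, r over the 160 libraries was 0.26 (permutation p = 0.0007). Mir30a and Mir30c-1 had an r of 0.31 and a rho of 0.26 (permutation p = 0.00015 and 0.00078, adjusted 0.000225 and 0.00117), and 0.25 without the 2 farthest. That relation did not hold within each age, with r of -0.02 in 2-month, 0.43 in 6-month and 0.53 in 10-month libraries, and with library size alone it was 0.09 (permutation p = 0.255). Mir30c-1 and Mir30c-2, which give the same 5p product, had an r of 0.17 and a rho of 0.19 (permutation p = 0.0297 and 0.0190, adjusted 0.0297 and 0.0190). It was 0.17 without the 2 farthest, 0.26, 0.18 and 0.07 within the ages, and 0.05 with library size alone (permutation p = 0.546). Counts had been divided between these 2 rows within one read-sharing set, so their correlation cannot be read as that of the loci.

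The microRNAs most like each member were named by the same centred correlation over 160 libraries, among 219 other listed microRNAs with a mean of at least 50 counts. For Mir30a they were Mir181c (r = 0.63), Mir181a-1 (0.62) and Mir181a-2 (0.60), all loci of the miR-181 family. For Mir30c-2 they were Mir30b (0.58), with which it shares reads, Mir181b-2 (0.55) and Mir186 (0.55). Mir30e, which is not listed, had an r of 0.58 with Mir30c-2, above those of Mir181b-2 and Mir186, 0.28 with Mir30a and 0.17 with Mir30c-1. For Mir30c-1 they were Mir181b-1 (0.33), Mir25 (0.32) and Mir30d (0.32), none of which came near the values for the other members. These values are a description, and the libraries share their scaling factors.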

How the data were processed

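The deposited table gives the authors' estimated counts per Ensembl transcript for 168 mouse cortex libraries. Per the labels and the study's methods, RNA subfractions enriched from total RNA were sequenced as single-end, strand-specific 36-base reads, base calls came from CASAVA 1.8.2, and clipped reads were aligned to mm10 with STAR and counted with HTSeq. HTSeq gives whole numbers, whereas 47.7% of the deposited values above 0 are not whole, so the step that divided reads is not given in the sources used here. A second deposited table of FPKM values was not used. Counts were rounded to whole numbers. Groups followed the labels, and sex was taken from the cage for 2 libraries whose sex label differed from it. All 3 members and the lists of related microRNAs and cell type markers were chosen with earlier results of these data known. The named microRNAs were the members, rows of the same seed, neighbours in the order of levels, the 3 most correlated with each member, and the marker list.

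Listed microRNAs with at least 1 count in a comparison were tested with edgeR 4.0.16 in R 4.3.3 (TMM, robust dispersions, quasi-likelihood F test, two-sided, Benjamini-Hochberg over all microRNAs tested), with sex and, at 6 months, library code as covariates and, between ages and sexes, genotype. SE is the log2 fold change over the square root of F, and 95% intervals use the test's degrees of freedom. CAG length was in units of 100 repeats, with 7 for WT, and Z scores of 6 and 10 months were combined by their sum over the square root of 2. DESeq2 1.42.0 and other alternatives follow in the closing section. The fits were tested on simulated data. Correlations used 100000 permutations, two-sided.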

Additional observations from a re-analysis of the deposited data

Results flagged for a closer look

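In all, 9 of 63 sets of 8 libraries (3 members in 21 groups) held a library far from the other 7 by Dixon's ratio of gap to range. Chance alone flags about 1 set in 20. In the 10-month Q140 library F2, Mir30a was 54519.0 CPM against 41381 to 43915 in the other 7, and Mir30c-1 was 1145.5 CPM against 793 to 954. That library is also 1 of the 7 whose overall profile had the least connectivity with its age group. In the 6-month WT library F3, Mir30a was 33032.9 CPM against 80362 to 117552 and Mir30c-2 was 11790.8 CPM against 7040 to 9246. The remaining 5 were Mir30a in the 6-month Q92 library M3 (41928.4 CPM), Mir30c-1 in the 2-month Q20 library M4 (899.3 CPM) and the 10-month Q175 library F1 (715.7 CPM), and Mir30c-2 in the 6-month Q20 library F2 (8176.0 CPM) and the 6-month Q111 library F4 (8093.9 CPM).

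The 6-month WT libraries, which enter no main comparison, had a mean Mir30a level of 84613.6 CPM, with a median above the highest 6-month Q20 library at 38782 CPM.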

How the results depend on the processing

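The 3 age differences kept their direction and side of FDR<0.05 under all alternatives, except Mir30c-1, whose log2 value was 0.040 by library size alone, 0.016 with a lane covariate and -0.052 on lane number 7 alone. No other comparison had a member past the threshold, and no sign change below is of a value past the threshold in both fits. Alternatives chosen after seeing the data were repeating the correlations under other scalings and without outlying libraries, summing read-sharing sets, leaving out the 4 lowest and 4 highest library totals of each age, and adding the 6-month WT libraries without F3. The correlation of Mir30c-1 with Mir30c-2 was 0.13 with RLE (permutation p = 0.0926) and 0.14 without outlying libraries (p = 0.0968). Limits are the confounding of genotype with lane and library code at 6 months and of age with most lanes. The smallest member count was 1817, so counting error was small. The cause of each change was not tested. In all, 575 values were within their main call, against 38 that changed sign, 10 that newly passed, 6 that no longer passed and 6 levels, places or counts that moved.

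Newly past the threshold were, with 6-month WT libraries included, Mir30a and Mir30c-1 by CAG length at 6 months (-0.54 and 0.17) and in the meta-analysis (Z of -3.59 and 4.04), and without F3 the same (-0.59, 0.15, -3.77 and 3.77). The share of all microRNAs called in these fits is not given, so the calls cannot be read as particular to the members. Mir30c-1 in the meta-analysis also passed with the label's sex (Z of 2.75) and with only one library code (2.85). In 2-month Q92 mice, 1 member passed with DESeq2 and 1 with lane as a covariate. Mean levels scaled to the listed microRNA counts in place of the library total were 57777 for Mir30a, 1282 for Mir30c-1 and 19698 for Mir30c-2.

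Signs changed as follows. For Mir30c-2 in 6-month Q175 mice the log2 value was -0.0060 with RLE, -0.0062 with DESeq2, -0.0087 with filterByExpr, -0.029 with all transcripts, -0.018 without library code, -0.0052 with 6-month WT libraries and -0.029 with all genotypes in one fit. For Mir30c-1 in 2-month Q175 mice it was -0.0059 with Q20 as the only controls. For CAG length at 2 months, Mir30c-1 gave 0.0034 with RLE, 0.0035 with DESeq2, 0.0024 with all transcripts, 0.011 with lane, 0.017 summed with Mir30c-2 and 0.012 summed over its read-sharing set, and Mir30a gave -0.0016 with lane. At 6 months, Mir30a gave 0.020 without Q175 mice, and Mir30c-1 gave -0.0025 summed with Mir30c-2 and -0.019 summed over its set. At 10 months, Mir30a gave 0.061 without Q175 mice, 0.00013 with the Mir30c loci summed and 0.0067 summed over its set. In the meta-analysis, Mir30a had a Z of 1.90 without Q175 mice, and Mir30c-2 had -0.035 with all transcripts, -0.31 without 7 outlying libraries and -0.020 without library code. Between sexes, Mir30a gave -0.00024 with all transcripts and Mir30c-1 gave 0.023 and 0.026 when summed. For age by CAG length, Mir30a gave 0.025 without Q175 mice, and Mir30c-2 gave -0.0040 by library size alone, -0.015 with lane and -0.0037 without outlying libraries. On shared lanes, Mir30a gave 0.017 summed over its set in Q175 against Q80, and Mir30c-1 gave 0.0016 with RLE and 0.0017 with DESeq2 in Q140 against Q92.

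With the replicate number as a block, Mir30c-2 in 6-month Q175 mice was -0.0021 and Mir30a in Q175 against Q80 was 0.0016, and no call changed. In Q140 against Q92 the replicate block could not be fitted. Same-numbered Q175 and Q20 mice had correlations of their deviations from -0.75 to 0.57 at 2 months, -0.90 to 0.76 at 6 months and -0.57 to 0.38 at 10 months, and 1 of 8 mice at 6 months and 0 at the other ages correlated best with its own number, so they share only a number.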
